A study of Mus musculus with 7 samples.

Results

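Mature miRNAs of primary mouse myogenic progenitor cells were compared between day 5 and day 1 of differentiation, by TaqMan real-time PCR on total RNA. The cells came from hind limb muscle of C57BL/6J mice and were used at passage 3. They were seeded on a coat of entactin, collagen IV and laminin, left in growth medium (Ham's F-10 with fetal serum and FGF-2) until day 0, and then moved to DMEM with a low share of horse serum. Both groups carried this same change of medium and differ in the day of collection. The 375 miRNA assays of the plate, 335 for mouse and 40 for rat sequences, are all members of the comparison, out of 381 assays in all. It uses 8 of the 24 rows of threshold cycles that the 7 deposited pairs of days hold, 4 rows for each day. Nothing in the labels tells whether a day's 4 rows are separate cultures or repeated wells of the same RNA. A p-value here therefore reflects row-to-row spread, and that spread may be technical. No sex, age or number of mice is given in the sources used here, and no genotype other than the strain.

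Myogenic progenitors are the descendants of the satellite cells that lie along muscle fibres. When serum is withdrawn they leave the cell cycle, switch on muscle genes and fuse into myotubes. A miRNA is a short RNA that guides Argonaute proteins to messenger RNAs, mostly through its seed (bases 2 to 8), and lowers their stability and translation. Muscle has its own set: miR-1 and miR-133a are made from shared transcripts and are turned on by myogenic factors, miR-499 lies within a myosin heavy chain gene, and miR-486 is abundant in muscle and red cells. The cluster that runs from miR-17 to miR-92a and the miR-15 family are best known for their roles in the cell cycle, where the first favours proliferation and the second restrains cyclins.

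The mature sequences of 173 of the 231 tested mouse assays were matched by name in RefSeq (GRCm38.p6). Those below are a selection of matched miRNAs that the results return to, with their partners by seed or hairpin, and the seed is in capitals. It is not a ranking by size of change. The first set rose.

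miR-499-5p: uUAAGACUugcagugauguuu
miR-10b-5p: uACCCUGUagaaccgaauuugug
miR-10a-5p: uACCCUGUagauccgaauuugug
miR-133b-3p: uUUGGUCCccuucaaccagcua
let-7f-5p: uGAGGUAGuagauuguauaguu
miR-98-5p: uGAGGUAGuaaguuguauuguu

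The second set fell, except miR-335-5p, the other arm of the hairpin of miR-335-3p.

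miR-335-3p: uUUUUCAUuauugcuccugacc
miR-335-5p: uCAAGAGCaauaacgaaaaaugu
miR-15b-5p: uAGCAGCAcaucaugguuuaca
miR-16-5p: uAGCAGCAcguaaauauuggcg
miR-17-5p: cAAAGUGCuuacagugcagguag
miR-92a-3p: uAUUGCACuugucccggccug
miR-7a-5p: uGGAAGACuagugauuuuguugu
miR-7b-5p: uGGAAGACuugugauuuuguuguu

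On the same build, miR-499-5p lies at chr2:155622893-155622913 on the plus strand, within the bounds of Myh7b. miR-10b-5p lies at chr2:74726074-74726096 on the plus strand, within those of Hoxd3 and Hoxd4. Both arms of miR-335 lie within Mest on the plus strand, at chr6:30741314-30741336 for 5p and chr6:30741354-30741375 for 3p. miR-15b-5p lies at chr3:69009775-69009796 on the plus strand within Smc4, beside a copy of miR-16-5p at chr3:69009918-69009939.

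A threshold cycle (Ct) is the cycle at which an assay's signal crosses a set level, so that 1 cycle fewer stands for about 2-fold more template. MammU6, the endogenous control, had Ct of 13.25, 12.3, 12.54 and 12.74 in the 4 rows of day 1 and of 13.69, 12.58, 12.74 and 12.87 in those of day 5. The level of a miRNA is the MammU6 Ct minus its own Ct in the same row, on a log2 scale, and a change is the mean level of day 5 minus that of day 1. Levels are not compared between assays, whose efficiencies may differ. The summed level of a marker list is the log2 of its members' levels added on the linear scale within a row. It takes equal efficiencies for granted and is set mostly by the members of earliest Ct. A row of day 1 had a Ct for 251 to 262 miRNA assays and a row of day 5 for 258 to 271, and 238 assays had one in all 8 rows. In all, 243 assays were tested (at least 3 of 4 rows on both days and a mean Ct under 35 on at least 1 of them). Of the other 132, 83 had no Ct on either day.

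Most of what changed rose. Relative to MammU6, 81 of 243 assays were higher on day 5 (33.3%) and 18 were lower (7.41%), at an adjusted p under 0.05 (limma, Benjamini-Hochberg over the 243). Together these are 99 assays (40.7%), of which 90 changed by at least 2-fold. Blocking on row position, 169 passed, 137 higher and 32 lower, and all 99 were among them. Of the 238 assays with a Ct in all 8 rows, 76 had every row of day 5 above every row of day 1 in level (31.9%) and 16 had every row below (6.72%). At least 4-fold changes were called for 29 assays that rose and 4 that fell. Leaving out 1 row at a time gave 69 to 105 calls, and 63 of the 99 passed in all 8 such fits. The count of higher assays was 51 without row 1 of day 5 and 54 without row 2 of day 1.

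The reference sets where 0 lies. The median change of the 243 assays was 0.77 against MammU6, so that a miRNA with no change relative to MammU6 fell relative to the others. Against the median miRNA assay of each row, every assay with all its wells stood 0.93 lower, 120 assays passed (49.4%), 47 higher (19.3%) and 73 lower (30%), and 39.2% of the calls were for higher assays in place of 81.8%. All 18 lower assays, and 47 of the 81 higher ones, were called in the same direction against the median assay. Over MammU6 and 7 other references, 46 assays were higher and 16 lower throughout. The 7 are the median assay, snoRNA135, snoRNA202, U87, Y1, the mean of these 4 controls and the day mean of MammU6. They are not independent, and the day mean of MammU6 gives the same changes as MammU6 where all wells have a Ct. The other small RNA controls moved against MammU6 by 0.16 (Y1), 0.17 (snoRNA135), 0.54 (U87) and 0.77 (snoRNA202), each with an SE of 0.44, and none passed (adjusted p over the 4 of 0.345 to 0.712). Blocking on row position, snoRNA202 (adjusted p = 2.34e-06, limma) and U87 (adjusted p = 0.000264) passed. Changes are given below against MammU6, with the value against the median assay where it matters.

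**Figure D1:**
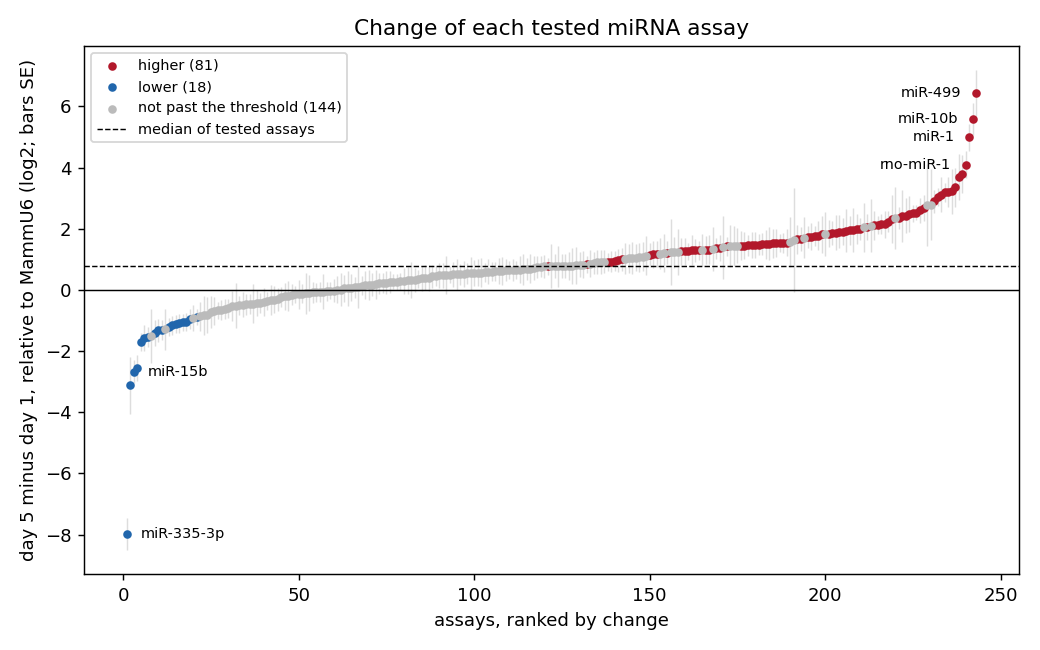
Change of each of the 243 tested miRNA assays from day 1 to day 5, relative to MammU6 (log2, bars SE of the limma fit), in rank order. The 81 assays called higher and the 18 called lower are coloured, and the dashed line is the median of all, at 0.77.

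The list of muscle-restricted miRNAs rose more than any other list, by its median, though its member miR-486 is also abundant in red cells. Of 7 on the plate 6 were tested. Of these 5 rose and none fell, beside 33.3% and 7.41% of all tested assays. The list's median change was 3.20 beside 0.77 for all tested assays. Against the median assay the list's median was 2.27 and the same count of 5 was higher, beside 19.3% of all tested assays. miR-499, which represses regulators of the fast fibre programme in mouse muscle, had the largest rise of all 243 assays. Its Ct were 32.78, 32.8, 32.01 and 30.64 on day 1 and 25.37, 25.02, 26.91 and 26.25 on day 5. The rows of the days lay far apart, with a change of 6.43 (SE 0.76, adjusted p = 5.21e-06, limma) or 86.4-fold.

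miR-1, which targets Hdac4 and favours muscle differentiation, had Ct of 22.41, 21.9, 20.36 and 20.58 on day 1 and of 16.56, 16.34, 16.82 and 16.64 on day 5. Rows 1 and 2 of day 1 were later than rows 3 and 4, and all 4 rows of day 5 lay above them in level. The change was 4.98 (SE 0.45, adjusted p = 4.86e-07, limma), or 31.7-fold. The rat assay for miR-1 rose by 4.09 (SE 0.44), from Ct of 18.05 to 20.06 on day 1 to Ct of 15.21 to 15.51 on day 5.

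miR-133a, which shares transcripts with miR-1 and represses Srf in muscle, had Ct of 14.87, 14.39, 14.51 and 14.1 on day 1 and of 11.8, 11.29, 11.48 and 11.59 on day 5. The rows did not overlap, and the change was 3.19 (SE 0.30, adjusted p = 5.73e-07, limma), or 9.13-fold. miR-133b, a close relative, is encoded elsewhere, within the bounds of Lincmd1 on chromosome 1. It rose by 1.67 (SE 0.39, adjusted p = 0.00347, limma), from Ct of 16.29, 16.48, 16.72 and 16.19 to 15.04, 14.77, 15.26 and 14.99.

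miR-486, a miRNA of muscle and red cells, rose by 3.21 (SE 0.48, adjusted p = 8.94e-05, limma), with Ct of 30.72 to 31.41 on day 1 and of 27.08 to 28.61 on day 5. miR-208b lies within the bounds of the slow myosin gene Myh7. It did not pass, with a change of 1.05 (SE 0.45, adjusted p = 0.0689, limma) and rows that overlapped. Its change was 0.12 against the median assay, and miR-208 was not tested.

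**Figure D2:**
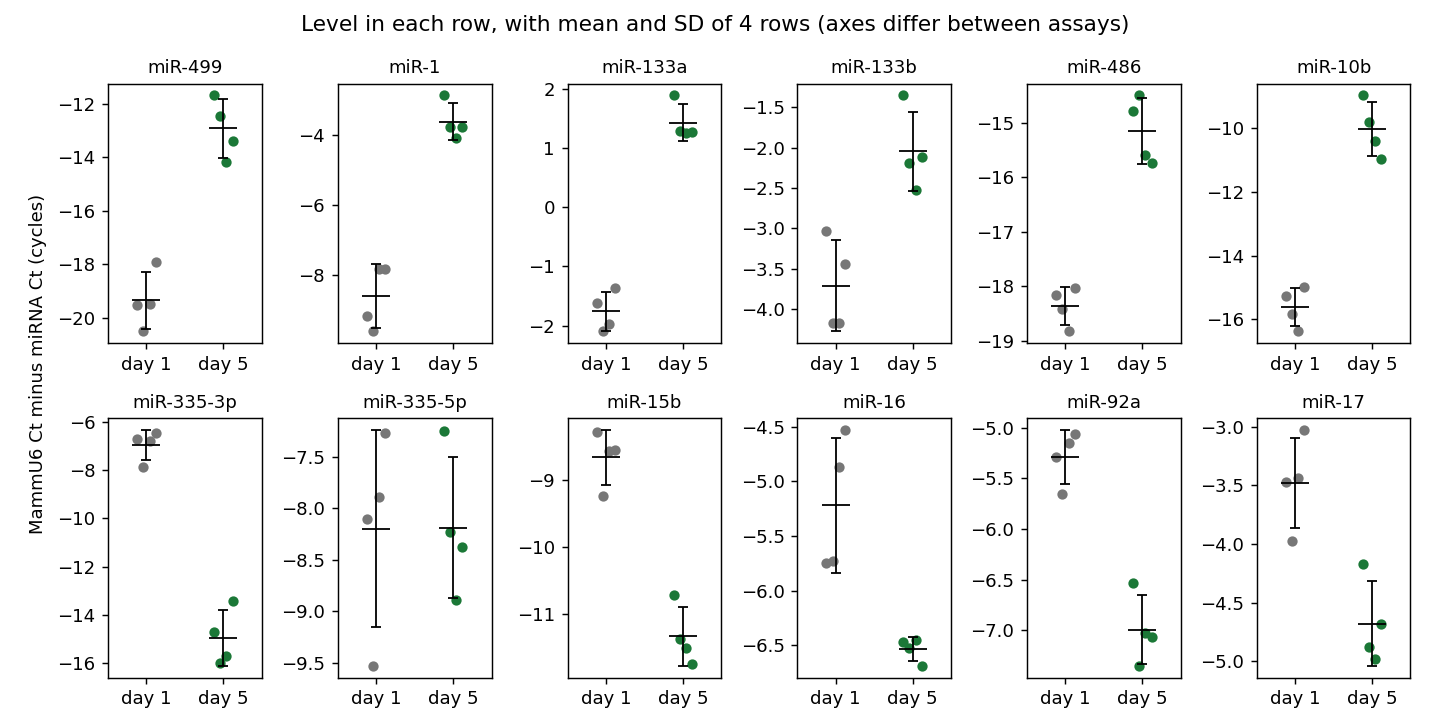
Level in each of the 4 rows of day 1 and day 5 for 12 miRNAs, as MammU6 Ct minus miRNA Ct in cycles, with the mean and SD of the rows. The rows of the days are separate in every panel except miR-335-5p, and the axes differ between panels.

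Several miRNAs that are not muscle-restricted rose as steeply. miR-10b, encoded among the Hoxd genes, had Ct of 28.53, 28.12, 28.91 and 27.74 on day 1 and of 22.67, 22.4, 23.14 and 23.84 on day 5. Its rows did not overlap, and it rose by 5.57 (SE 0.53, adjusted p = 5.73e-07, limma), or 47.7-fold. miR-10a, which has the same seed and lies among the Hoxb genes, rose by 1.96 (SE 0.71, adjusted p = 0.0355, limma). Its rows overlapped, and it passed in 3 of 8 fits that left out a row, and missed the threshold on dropping day 1 rows 2 or 3, or day 5 rows 1, 2 or 4 (changes of 1.51 to 2.47).

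miR-598 rose by 3.78, miR-375 by 3.36, miR-339-5p by 3.11, miR-139-5p by 3.04 and miR-547 by 2.90. The rule that named them asks for a pass of the test (limma) and for no overlap between the rows of the days. Neither trait is therefore further evidence. miR-375 is best known from pancreatic islets and miR-139-5p lies within the bounds of Pde2a. The Ct of miR-139-5p were 22.23, 22.09, 22.09 and 21.89 on day 1 and 19.64, 19.05, 19.11 and 19.37 on day 5, with an SE of 0.29. Those of miR-375 were 31.27 to 32.4 and 28.15 to 30.02, with a wider SE of 0.64. miR-339-3p and its rat assay rose by 2.52 and 2.50.

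Of the neural marker list 3 of 4 tested members rose: miR-9 by 2.67 (SE 0.42), miR-128a by 2.60 (SE 0.41) and miR-138 by 1.54 (SE 0.30). miR-128a is known in brain and is also reported in skeletal muscle. The list had a median of 2.07 beside 0.77 for all tested assays, and of 1.14 against the median assay, where 2 members passed. Of all tested assays 33.3% were higher, or 19.3% against the median assay. miR-137, a neural miRNA, had a change of -0.11, and the defining neural marker miR-124 was among the members not tested. The summed level of the list was -9.00 to -7.89 on day 1 and -6.86 to -6.05 on day 5.

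miR-302b, a miRNA of embryonic stem cells, had no Ct in any row of day 1 and Ct of 31.65, 34.48, 32.94 and 31.92 on day 5. With the absent wells set to 40 cycles this is 183-fold. That value is a lower limit only if no absent well was a failed reaction, which was not tested. It was the only assay with a Ct in all rows of 1 of these days and in none of the other. None of the 12 pluripotent cell markers on the plate was tested, and 4 of them had no Ct on either day.

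The largest fall was that of miR-335-3p. Its Ct were 19.96, 20.18, 19.36 and 19.22 on day 1 and 28.39, 28.57, 28.44 and 26.28 on day 5. The rows of the days were far apart, with row 4 of day 5 the earliest of its day. The change was -7.98 (SE 0.53, adjusted p = 1.11e-08, limma), so that day 1 was 252-fold above day 5. miR-335-5p, the other arm of the same hairpin in Mest, had Ct of 21.35, 21.83, 20.43 and 20.01 on day 1 and of 20.94, 20.81, 21.63 and 21.25 on day 5. Its rows overlapped and its change was 0.01 (SE 0.54, adjusted p = 0.986, limma), with a value of -0.92 against the median assay.

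The log2 ratio of the 5p over the 3p assay of miR-335 was -1.39, -1.65, -1.07 and -0.79 in the rows of day 1. On day 5 it was 7.45, 7.76, 6.81 and 5.03. This ratio needs no reference, since both assays come from the same row. It changed by 7.99 (SE 0.51, adjusted p over 20 pairs = 5.47e-09, limma), and by 7.66 to 8.56 with 1 row left out.

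Of 20 pairs of 5p and 3p assays of the same name, 6 changed their ratio (30%), and 5 of these gained 5p over 3p. The 5p sequences of miR-125b and miR-199a are each encoded by hairpins on different chromosomes. The ratios of these pairs are therefore not those of a single hairpin, and the part of each hairpin was not tested. The ratio rose by 0.89 (SE 0.16) for miR-125a, by 1.23 (SE 0.24) for miR-345 and by 1.02 (SE 0.22) for miR-324. These 3 and miR-335 passed in all 8 fits that left out a row. miR-125b gained 1.23 (SE 0.41, adjusted p = 0.0307, limma) and passed in 3 of 8 such fits, missing on dropping day 1 rows 2, 3 or 4, or day 5 rows 1 or 4 (1.04 to 1.54). miR-615 lost 1.48 of 5p over 3p (SE 0.44, adjusted p = 0.0207, limma) and lost its call on dropping day 1 row 4 or day 5 row 2 (-1.76 to -1.12). The next in size was miR-409, at 2.67 with an SE of 1.32, which did not pass.

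**Figure D3:**
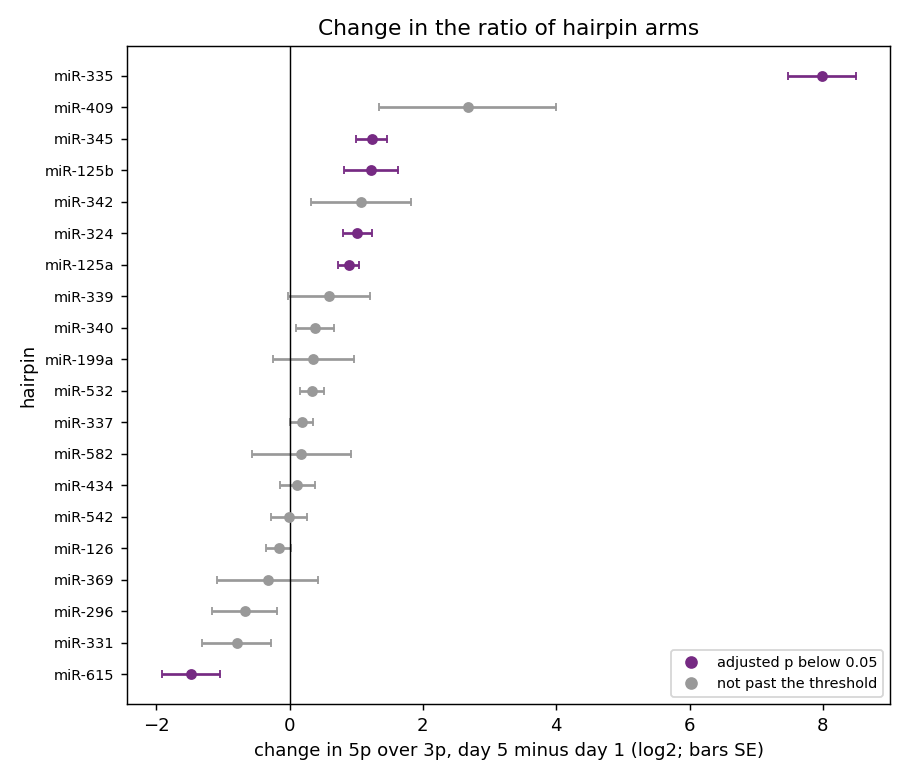
Change in the log2 ratio of the 5p over the 3p assay from day 1 to day 5 for 20 pairs of assays, with the SE of the limma fit as bars. miR-335 stands at 7.99, and the other 5 pairs past the threshold lie between -1.48 and 1.23.

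The cluster from miR-17 to miR-92a and its paralogs held 6 of the 18 assays called lower. Of 11 tested members 6 fell and none rose, beside 7.41% lower and 33.3% higher of all tested assays. Their median was -0.96 beside 0.77 for all tested assays. Against the median assay all 11 were lower, with a median of -1.89, beside 30% of all tested assays. With row position as a block 9 were lower, beside 32 of 243 tested assays. Leaving out a row gave 5 to 7 lower members. miR-92a, whose targets include integrin and cell cycle genes, fell most. Its Ct were 18.54, 17.96, 17.69 and 17.8 on day 1 and 20.22, 19.93, 19.77 and 19.94 on day 5. The rows did not overlap, and the change was -1.70 (SE 0.30, adjusted p = 0.000298, limma).

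miR-17, a repressor of Cdkn1a and E2f1, had Ct of 16.72, 16.27, 15.98 and 15.77 on day 1 and of 17.86, 17.46, 17.72 and 17.55 on day 5. It fell by 1.20 on the log2 scale (SE 0.29, adjusted p = 0.00408, limma) with no overlap of rows. miR-18a changed by -1.16, miR-106a by -1.12 and miR-20b by -1.04, again with separate rows and past the test. miR-20a changed by -0.96 (SE 0.32, adjusted p = 0.0271, limma) with rows that overlapped, and dropping rows 3 or 4 of either day ended the call (changes of -1.15 to -0.77). miR-19a (-0.66), miR-19b (-0.63), miR-25 (-0.48), miR-93 (-0.47) and miR-106b (-0.31) did not pass. miR-25, miR-93 and miR-106b share the Mcm7 host gene, on chromosome 5.

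In the miR-15 family, which includes miR-16, miR-322 and miR-503, 3 of 7 members fell and none rose, with a median of -0.53, beside 7.41% lower, 33.3% higher and a median of 0.77 for all tested assays. Blocking on row position gave 3 lower and 2 higher, beside 32 and 137 of 243 tested assays. miR-15b, which targets cyclins and Bcl2 with miR-16, had Ct of 21.54, 21.54, 21.11 and 21.29 on day 1 and of 24.4, 23.96, 24.24 and 24.61 on day 5. Its change was -2.67 (SE 0.37, adjusted p = 3.92e-05, limma), or 6.36-fold lower on day 5, with rows well apart. miR-16 changed by -1.31 (SE 0.32, adjusted p = 0.00403, limma), from Ct of 17.27 to 19 to Ct of 19.11 to 20.16. Its call was lost with Y1 as reference (-1.48, adjusted p = 0.0686, limma). miR-195 changed by -1.09 (SE 0.31, adjusted p = 0.0114, limma). miR-15a (-0.53) and miR-497 (-0.32) did not pass.

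miR-322 and miR-503, which promote cell cycle exit in mouse myoblasts by lowering Cdc25a, did not pass, at 0.64 (SE 0.37) and 0.50 (SE 0.35), but were called higher with row position as a block (adjusted p = 0.0275 and 0.0342, limma). The sign of both turned against the median assay (-0.28 and -0.42) and against snoRNA202 (-0.12 and -0.26), and that of miR-503 also against U87 (-0.04). Their neighbours on chromosome X split: miR-542-3p rose by 2.15 (SE 0.44) and miR-542-5p by 2.14 (SE 0.33), both past the test and with separate rows, while miR-351 was at -0.13. In that cluster 3 of 6 tested members rose, with a median of 0.98, beside 33.3% and a median of 0.77 for all tested assays. Against the median assay 2 were higher and 1 lower, with a median of 0.05, beside 19.3% and 30% of all tested assays. Leaving out a row gave 2 to 4 higher.

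Outside these families, miR-7a and miR-7b, which share a seed, changed by -1.57 (SE 0.41, adjusted p = 0.00692, limma) and -1.32 (SE 0.38, adjusted p = 0.0114, limma). Their rows did not overlap, with Ct of 27.63 to 29.43 for miR-7a on day 1 and of 29.95 to 30.8 on day 5. miR-187 changed by -1.54 (SE 0.32) and miR-125b-3p by -1.06 (SE 0.28), both with separate rows. Separate rows were part of the rule that named miR-7a, miR-7b, miR-187 and miR-125b-3p. miR-182, of the sensory cluster with miR-183 and miR-96, changed by -0.88 (SE 0.26, adjusted p = 0.0128, limma) and did not pass without row 3 of day 1 (changes of -0.97 to -0.76). It was called lower under 3 of 7 other references. miR-183 and miR-96 were at 0.36 and 0.31, and both fell below 0 with 4 other references (U87, snoRNA202, the mean of the 4 controls and the median assay).

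miR-615, encoded within the bounds of Hoxc5, fell in both arms. miR-615-5p had Ct of 33.05, 32.36, 33.24 and 32.01 on day 1 and of 36.02, 35.22 and 35.34 in 3 rows of day 5, with no Ct in row 4. It changed by -2.57 (SE 0.43, adjusted p = 0.000245, limma). miR-615-3p changed by -1.40 (SE 0.42, adjusted p = 0.0136, limma) and did not pass without row 4 of day 5, with changes of -1.71 to -1.09. The 5 tested miRNAs of the Hox clusters thus held 2 that rose and 2 that fell, beside 33.3% higher and 7.41% lower of all tested assays. The change of miR-196b was -0.08. With the median assay as reference 1 of the 5 was higher and 3 were lower, beside 19.3% and 30% of all tested assays. There miR-10a no longer passed (1.03, adjusted p = 0.112, limma) and miR-196b did (-1.01, adjusted p = 0.0495, limma). rno-miR-207, which was outside the rule for named miRNAs and is given for its size, changed by -3.12 (SE 0.93) at Ct of 32.64 to 39.34, and it did not pass without row 4 of day 5 (changes of -3.77 to -2.36).

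The let-7 family, which represses proliferation genes such as Ras and Hmga2 and shares the seed GAGGUAG, had 9 tested members, 5 higher and none lower. Of all tested assays 33.3% were higher and 7.41% lower. The median of the family was 1.17, beside 0.77 for all tested assays. With the median assay as reference it was 0.24, and 2 members were higher, beside 19.3% of all tested assays. Blocking on row position, all 9 were higher, beside 137 of 243 tested assays, and leaving out a row gave 2 to 5. miR-98 rose by 3.22 (SE 0.73, adjusted p = 0.00276, limma) with rows that overlapped, and let-7f by 2.47 (SE 0.59, adjusted p = 0.00368, limma) with separate rows. The Ct of let-7f on day 1 were 28.1, 27.56, 26.07 and 25.38, and those on day 5 24.84, 23.7, 24.83 and 24.91. Rows 1 and 2 of day 1 were later than rows 3 and 4.

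In the miR-30 family 3 of 5 rose (miR-30d by 1.77, miR-30a by 1.55 and miR-30e by 1.48), and against the median assay 3 were higher, beside 33.3% and 19.3% of all tested assays. The family's median was 1.48, beside 0.77. Of the tested miR-23, miR-24 and miR-27 assays, 3 of 4 rose, with a median of 1.69, and against the median assay 3 were higher as well. miR-23b rose by 2.06 (SE 0.42), miR-27b, which lowers Pax3 in mouse muscle stem cells, by 1.84 (SE 0.45), and miR-24 by 1.54 (SE 0.32), while miR-27a was at 0.78 and turned to -0.14 against the median assay. miR-23b, miR-27b and a copy of miR-24 are encoded together on chromosome 13, and miR-27a and the other copy on chromosome 8. miR-181a, which lowers Hoxa11 in mouse myoblasts, rose by 1.99 (SE 0.50, adjusted p = 0.00465, limma), while miR-181c was at 1.44 and did not pass.

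The list of broadly expressed miRNAs with a reported role in myoblasts had 7 of 19 higher and none lower, beside 33.3% and 7.41% of all tested assays. Taking the median assay as reference, 5 were higher and 7 lower, beside 19.3% and 30% of all tested assays. Blocking on row position gave 12 higher and 3 lower, beside 137 and 32 of 243 tested assays. The list's median of 0.69 lay near that of all assays and turned to -0.23 against the median assay and to -0.07 against snoRNA202. The 3 members of the miR-29 family (median -0.41), the 4 of the miR-34 and miR-449 family (median -0.01) and miR-221 and miR-222 (-0.87 and -0.46) did not pass against MammU6. Of these, 3, 3 and 2 were lower against the median assay, beside 30% of all tested assays. miR-221 and miR-222 target Cdkn1b and are known to fall when myoblasts differentiate.

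The Dlk1-Dio3 cluster, a large imprinted cluster expressed from the maternal chromosome 12, had 35 of 47 members tested. Of these 15 rose and none fell, with a median of 1.07, beside 33.3% higher, 7.41% lower and a median of 0.77 for all tested assays. Against the median assay 8 were higher and 4 lower, with a median of 0.14, beside 19.3% and 30% of all tested assays. When row position was a block 23 were higher and 1 lower, beside 137 and 32 of 243 tested assays. Leaving out a row gave 6 to 16 higher. miR-666-5p rose by 3.68 (SE 0.75, adjusted p = 0.00132, limma) at Ct of 33.57 to 36.25 in 3 rows of day 1 and of 30.77 to 32.95 on day 5. miR-323-3p (2.12), miR-329 (2.11) and miR-136 (1.74) rose as well, while miR-376b, at -1.28, did not pass. In the Sfmbt2 cluster, of an imprinted gene on chromosome 2, 3 of 6 rose with a median of 1.34, and against the median assay none was higher. miR-467e, the member with the largest change (2.31, SE 0.79), lost its call on dropping any of day 1 rows 1, 2 and 3 or day 5 rows 1 and 2 (changes of 1.90 to 2.99). Of the cluster that holds miR-188 and miR-500, 2 of 6 rose (beside 33.3% of all tested assays), miR-500 by 1.65 and miR-501-3p by 1.21, and the second did not pass without row 1 of day 5 (changes of 1.03 to 1.38). With the median assay as reference 1 member was higher and 2 were lower, and 4 were higher when row position was a block. That cluster's median was 0.76, -0.17 against the median assay and -0.01 against snoRNA202.

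The plate also held markers of other cell types. None of the 6 fibroblast and smooth muscle markers passed (median 0.63, and -0.30 against the median assay). With row position as a block 3 of them were higher, beside 137 of 243 tested assays. Against the median assay 1 was lower, and up to 1 was higher with a row left out. Both arms of the endothelial miR-126 rose, 3p by 1.29 and 5p by 1.13, and neither passed against the median assay. The 5p arm passed in 3 of 8 fits that left out a row, and missed the threshold on dropping day 1 rows 2 or 3, or day 5 rows 1, 2 or 4 (changes of 0.91 to 1.39). Beside 33.3% of all tested assays, 1 of 5 tested blood cell markers rose, miR-451 by 2.42 (SE 0.86), at Ct of 32.47 to 33.81 in 3 rows of day 1 and of 29.4 to 31.68 on day 5. Its call was lost on dropping day 5 rows 1, 2 or 4 (changes of 2.07 to 2.71). Of 3 epithelial markers 1 rose, miR-200c by 1.49 (SE 0.47), whose call was lost on dropping day 1 row 2 or day 5 rows 1 or 2 (changes of 1.06 to 1.88), and 4 others were not tested. With the median assay as reference miR-451 and miR-200c did not pass (adjusted p = 0.119 and 0.218, limma). There 2 blood and 1 epithelial marker were lower and none of either list was higher, beside 30% and 19.3% of all tested assays. The summed level ran from -5.68 to -4.67 on day 1 and from -5.18 to -3.79 on day 5 for the fibroblast list, from -11.26 to -9.95 and from -9.77 to -8.88 for the endothelial, from -8.08 to -6.73 and from -8.08 to -7.44 for the blood, and from -11.95 to -10.91 and from -12.03 to -11.21 for the epithelial list. Their part in the other results was not tested. Fewer cells of a type and less RNA per cell cannot be told apart in such cultures.

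**Figure D4:**
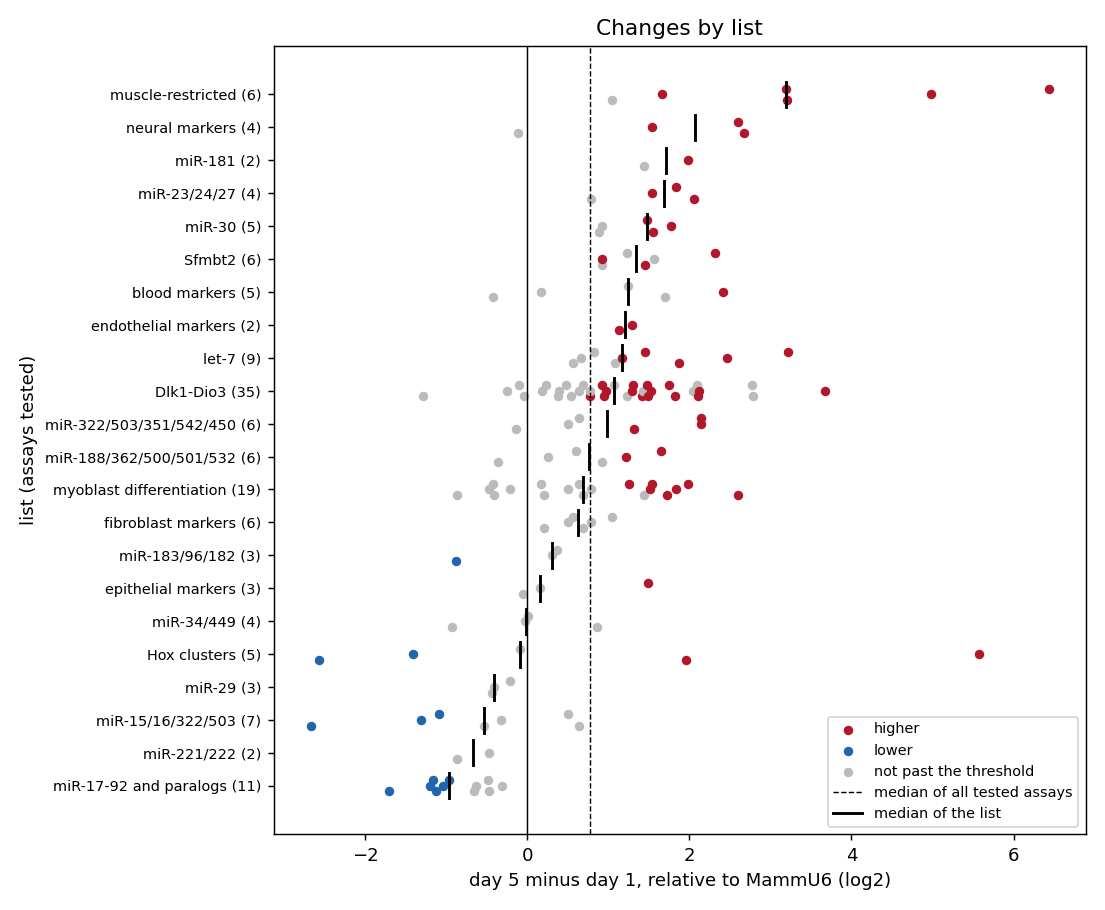
Change from day 1 to day 5 relative to MammU6 (log2) of each tested assay in 22 lists, in order of the list's median (bar), with called assays in colour. The muscle-restricted list has the highest median, 3.20, and the miR-17 cluster with its paralogs the lowest, -0.96, on either side of the median of all assays at 0.77 (dashed line).

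Among the 173 matched assays 22 seeds were shared by at least 2, which covers 67 assays. Of these seeds 15 had a called member, and for 3 every tested member was higher and for 1 every tested member was lower. Over all tested assays 33.3% were higher and 7.41% lower, or 19.3% and 30% against the median assay. For the seed AAAGUGC of miR-17 and its paralogs 4 of 6 fell. For AGCAGCA of miR-15b and miR-16, 3 of 6 fell and miR-322 had a value above 0. Both miRNAs with the seed GGAAGAC (miR-7a and miR-7b) fell, and both with ACCCUGU (miR-10a and miR-10b) rose.

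Day 2 divides the interval into steps, which share its rows and are given side by side. From day 1 to day 2, 31 assays were higher (12.8%) and 4 lower (1.65%), with a median of 0.59. From day 2 to day 5, 21 were higher (8.64%) and 12 lower (4.94%), with a median of 0.16. Of the 81 assays called higher over both steps 45 had the larger part from day 1 to day 2, and of the 18 called lower 14 had it from day 2 to day 5. These last counts carry no test, and the same share over all 243 assays is not given. The median of all tested assays was itself higher in the first step (0.59 beside 0.16), so the counts are not read as traits of the called assays.

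Of the muscle miRNAs, 3 passed in both steps. miR-499 rose by 3.72 and then 2.71, miR-1 by 3.01 and then 1.97, and miR-133a by 1.89 and then 1.30, all past the test (limma). miR-486 rose by 2.17 and miR-133b by 1.46 in the first step, and neither passed in the second (1.04 and 0.20). miR-208b passed in neither (0.93 and 0.12), and against the median assay the second step was -0.06 for miR-133b and -0.14 for miR-208b. On the level scale miR-499 stood at -19.35 ± 1.08 (SD, n = 4 rows) on day 1, -15.62 ± 0.91 on day 2 and -12.92 ± 1.09 on day 5. In growth medium it was at -20.18 ± 1.16 on day 2 and -15.86 ± 0.98 on day 5. miR-10b rose by 2.69 and then 2.88. miR-375 had a first step of -0.21 and a second of 3.57.

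The difference between the steps passed for 10 of 243 assays (4.12%), and for 28 at an unadjusted p under 0.05. Against the median assay 26 passed, and 36 when row position was a block. miR-335-3p changed by -1.68 in the first step and by -6.29 in the second, a difference of 4.61 (SE 0.92, adjusted p = 0.00794, limma). Its level was -6.97 ± 0.62 on day 1, -8.66 ± 0.76 on day 2 and -14.95 ± 1.17 on day 5 (SD, n = 4 rows), and in growth medium it was -6.64 ± 1.25 on day 2 and -7.59 ± 0.35 on day 5. miR-503 (1.67 and then -1.17) and miR-351 (1.27 and then -1.40) rose and then fell, and so did the rat assay for miR-351 (1.35 and then -1.50). miR-322 rose by 1.54 and had a second step of -0.90 that did not pass.

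miR-431 rose by 1.00 and then changed by -1.04, and miR-188-5p had steps of 0.86 and -1.22, of which the second passed. miR-615-5p went the other way, with -3.54 in the first step and 0.97, short of the threshold, in the second. miR-672 (-0.91 and then 2.82) and miR-668 (-1.52 and then 3.57) passed the test in the second step and not in the first. The difference held for rno-miR-351 in all 12 fits that left out a row, and for miR-615-5p in the 9 that could be made. It held in 11 of 12 for miR-335-3p, miR-351 and miR-503, which each did not pass without row 4 of day 2, and in 1 to 4 of 12 for the other 5, with differences of 1.75 to 2.36 for miR-431, 1.86 to 2.30 for miR-188-5p, 2.19 to 2.75 for miR-322, -4.36 to -3.46 for miR-672 and -6.04 to -4.28 for miR-668.

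**Figure D5:**
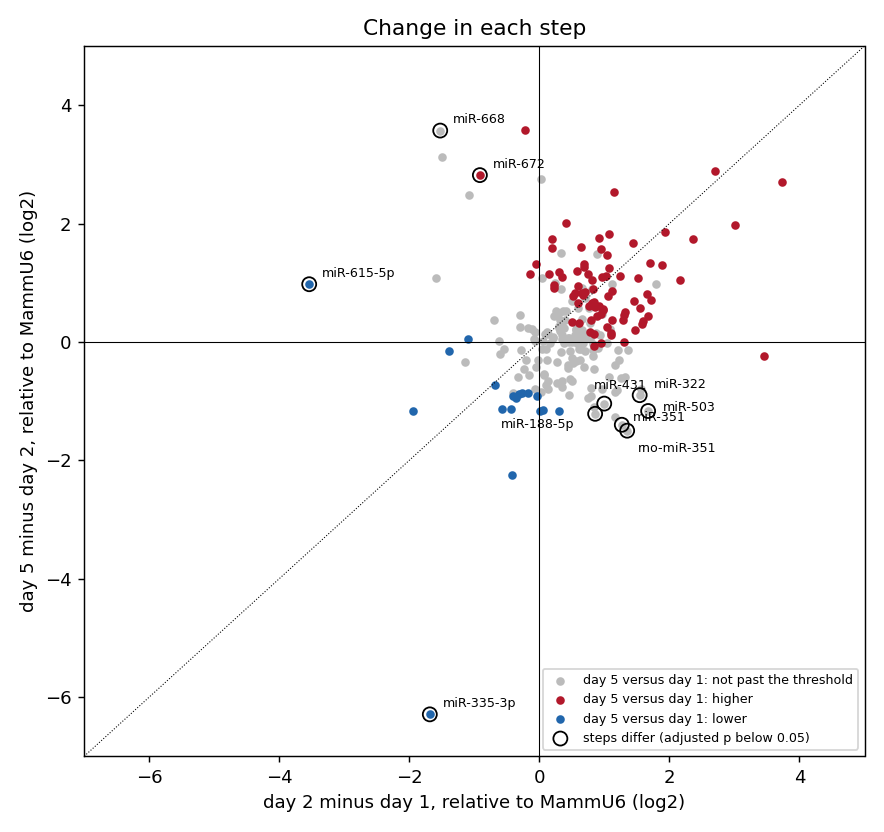
Change from day 1 to day 2 (horizontal axis) and from day 2 to day 5 (vertical axis) of 243 assays relative to MammU6 (log2), coloured by their call between day 1 and day 5. Rings mark the 10 assays whose steps differ, such as miR-335-3p at -1.68 and -6.29, and the dotted line marks equal steps.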

How the data were processed

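The authors deposited raw Ct values of 381 TaqMan assays from a 7900HT instrument, not normalized, with 4 rows per assay and day and wells without a Ct marked as undetermined, per the file headers and the labels. Baseline, threshold and pooling of RNA are not given in the sources used here. The authors' deposited value table holds a signed fold, a score whose making is not stated. For 223 of 228 assays it equals the fold of the day means against MammU6 within 0.001 on the log2 scale.

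Undetermined wells were left out. Levels of the 16 rows of days 0, 1, 2 and 5 entered a single fit (limma 3.58.1 in R 4.3.3, lmFit and eBayes), with a two-sided test per assay and Benjamini-Hochberg adjustment. Tests were checked on simulated data. The simulated noise was independent between rows, so this check does not cover deviations shared by rows of the same position. Arm ratios and the difference between steps were fitted likewise. Day columns that recur between pairs were identical (8 of 8).

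The labels number no rows. Rows of the same position correlated by 0.18 to 0.45 in their deviations between days 1 and 5, so position is an alternative block. Other alternatives were 7 references, Ct limits, filling of empty wells, fewer rows, fewer days and each row left out.

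The members and lists were chosen with earlier results of these data known. Named miRNAs were up to 15 each way with the largest change and separate rows, members of 23 lists, and arm pairs past the threshold. Neighbouring genes and sequences came from RefSeq (GRCm38.p6).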

Additional observations from a re-analysis of the deposited data

Results flagged for a closer look

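In 7 of 170 sets of 4 rows 1 row stood apart from the other 3, where chance gives about 1 in 20. On day 1 these were row 1 of miR-375, at a level of -18.02 beside -19.97 to -19.66, row 1 of miR-181a, at -11.79 beside -12.84 to -12.75, and row 4 of rno-miR-339-3p, at -13.58 beside -14.24 to -14.17. On day 5 row 1 was the highest for miR-133a (1.89 beside 1.26 to 1.29), miR-128a (-7.06 beside -8.23 to -8.08), miR-195 (-11.26 beside -11.70 to -11.68) and miR-23b (-9.34 beside -10.55 to -10.38). MammU6 was later in row 1 than in the other rows on both days, and its part in these values was not tested.

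The change from day 1 to day 2 differed from that of day 2 to day 5 for 10 assays (limma, over 243). First minus second step was 4.61 for miR-335-3p, 2.44 for miR-322, 2.84 for miR-503, 2.67 for miR-351, 2.85 for rno-miR-351, 2.07 for miR-188-5p and 2.04 for miR-431. It was -4.51 for miR-615-5p, -5.10 for miR-668 and -3.73 for miR-672.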

How the results depend on the processing

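The number of rows, 4 a day, limits precision, and the median SE of a change grew from 0.344 for assays with a day 1 Ct under 20 to 0.672 for those at 30 or more. Blocking on row position (a replicate block) raised the count of changed assays from 99 to 169, the block with the median assay as reference, chosen after seeing the data, gave 152, and an adjusted p under 0.01 left 57. Leaving out a row gave 69 to 105 changed assays, 4 to 7 changed arm ratios beside 6, and 2 to 10 differences between steps beside 10. Differences between steps numbered 26 against the median assay and 36 with the block. Rows at the same position deviated together (r of 0.45, 0.18, 0.33 and 0.40 over assays, each the highest for its row). The other counts stayed within 1.5 times of those given, 92 to 128 changed assays, 7 arm ratios with the block and 6 with days 1 and 5 alone. Of 2144 alternative values for 87 named miRNAs, 66 had the opposite sign and 1 was exactly 0, from 15 miRNAs, none of them called in the comparison. This does not cover the called assays that are not named. Of all 81 assays called higher, 77 kept their direction under all 7 other references, as did all 18 called lower. Against the median assay, with or without the block, values were -0.28 for miR-322, -0.42 for miR-503, -0.07 for miR-34a, -0.14 for miR-27a, -0.56 for miR-183, -0.62 for miR-96, -0.14 for miR-143, -0.77 for miR-205, -0.64 for miR-125a-5p, -0.76 for miR-125b-5p, -0.64 for miR-324-3p and -0.92 for miR-335-5p. Against snoRNA202 they were -0.12 for miR-322, -0.26 for miR-503, -0.40 for miR-183, -0.46 for miR-96, -0.61 for miR-205, -0.48 for miR-125a-5p, -0.60 for miR-125b-5p, -0.48 for miR-324-3p and -0.76 for miR-335-5p. Against U87 they were -0.0375 for miR-503, -0.18 for miR-183, -0.23 for miR-96, -0.38 for miR-205, -0.26 for miR-125a-5p, -0.38 for miR-125b-5p, -0.26 for miR-324-3p and -0.53 for miR-335-5p. Against the mean of the 4 controls they were -0.0444 for miR-183, -0.0994 for miR-96, -0.25 for miR-205, -0.13 for miR-125a-5p, -0.24 for miR-125b-5p, -0.12 for miR-324-3p and -0.40 for miR-335-5p. Against snoRNA135 they were -0.0075 for miR-205, 0 for miR-125b-5p and -0.15 for miR-335-5p, and against Y1 -0.005 for miR-205 and -0.15 for miR-335-5p. miR-142-3p was at -0.30 with undetermined wells set to 40, and without the rows of latest MammU6 miR-335-5p was at -0.27 and miR-345-3p at 0.05. With a row left out the values ran from -0.15 to 0.43 for miR-125b-5p, -0.29 to 0.16 for miR-196b, -0.0058 to 0.46 for miR-205, -0.43 to 0.32 for miR-335-5p and -0.50 to 0.30 for miR-345-3p. Why the references differ was not tested.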
